A study of Homo sapiens with 2 samples.

Results

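The clustered protocadherin genes are the genes of the PCDHA, PCDHB and PCDHG families, and they were taken as all rows whose symbol starts with PCDHA, PCDHB or PCDHG. They numbered 53 of 19198 genes, with 15 in the alpha cluster, 16 in the beta cluster and 22 in the gamma cluster. Polyadenylated RNA was sequenced from cells labelled A549, an established human line of non-small-cell lung cancer (NSCLC). One library came from cells overexpressing NICD1 (A549-NICD1) and the other from the vector control (A549-Vector). NICD1 is the intracellular part of the receptor NOTCH1, which enters the nucleus upon activation. Per the study's methods, the NICD1 reading frame was cloned into pSin-EF2 lentiviral vectors, and tagged NICD1 also into another plasmid. Which construct the sequenced cells carried is not stated there. With 1 library per condition no difference has a replicate check, and all intervals are 95% intervals that cover counting error only.

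Clustered protocadherins are transmembrane cadherins that are best known from neurons, where each cell switches on a small set of them and cells recognise their own branches by matching isoforms. In the alpha and gamma clusters each gene has its own promoter and a large first exon for the extracellular and transmembrane parts, which is spliced to constant exons shared by the whole cluster. The beta genes stand alone in a single exon. Promoters of the alternate isoforms are chosen one by one with the help of CTCF, cohesin and promoter methylation, whereas the C-type isoforms (PCDHAC1, PCDHAC2, PCDHGC3, PCDHGC4 and PCDHGC5) at the end of the alpha and gamma clusters are regulated differently.

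All members lie on the plus strand of chromosome 5 (build GRCh38). By GENCODE 29 the alpha first exons run from chr5:140786291-140969331, the beta genes from chr5:141051135-141249365 and the gamma first exons from chr5:141330685-141491700. Every alpha and gamma gene was annotated with 4 exons and every beta gene with 1 exon. Of the exon bases of a gene, 21.3% to 56.6% were shared with other members in the alpha cluster, 27.6% to 64.4% in the gamma cluster and 0% in the beta cluster. How reads in the shared exons were assigned is not given in the sources used here, so the values of single alpha and gamma isoforms are uncertain for that reason. Of 100-base windows of a first exon, up to 26.4% were also found in another member.

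The depth recovered from the values was 48528434 reads for A549-NICD1 and 48602848 reads for A549-Vector. The values are FPKM, reads per gene length and library depth, so that levels of different genes are compared per length. As a check of the construct, NOTCH1 was at 2865 FPKM with NICD1 and 5.40 FPKM with the vector, and the Notch target HES5 at 115 and 7.78 FPKM. Markers of the labelled line were partly absent. Of 16 genes listed for A549, KRT7, KRT19, CES1, FGA and FGB were listed at 0 in both libraries, and 8 in all were under 1 FPKM in both. For HEK293, a line from embryonic kidney, 8 genes were listed, and 7 of them reached 1 FPKM in each library. CDKN2A was the highest of the 8, at 138 FPKM in A549-NICD1 and 139 FPKM in A549-Vector. PEG10 was the lowest, at 0.451 and 0.541 FPKM. The names A549-NICD1 and A549-Vector are used here as the labels give them, and the source of the cells was not tested.

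Promoters of a family shared short words. The windows searched were the RefSeq promoters of build GRCh38.p14, 250 bases before to 50 bases after each start, in which 47 of the 53 genes were found. PCDHA3, PCDHA13, PCDHB6, PCDHB11, PCDHGA12 and PCDHGC5 were not in that table. The beta promoters shared the word GGTGGCGCT, which holds the CGCT core of the conserved element of protocadherin promoters. The 30-base windows of 6 beta genes that span the levels of the cluster are shown with the word in capitals, followed by PCDHB1, the beta gene listed at 0 in both libraries, with its nearest counterpart in capitals.
PCDHB2: ggaagagacgcggGGTGGCGCTgcagcctt
PCDHB13: tgtgaggacgcgtGGTGGCGCTgcaggata
PCDHB15: aaagacaacgcatGGTGGCGCTgcaggcta
PCDHB12: tgtggagacgcgtGGTGGCGCTgcaggata
PCDHB7: ccacaaaacgcaaGGTGGCGCTgctggcta
PCDHB3: caagcgaacgcatGGTGGCGCTgttgacta
PCDHB1: tcggctagcctttGGTGGTGCTgcagttag

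These windows lie at chr5:141094542-141094571 (PCDHB2), chr5:141213863-141213892 (PCDHB13), chr5:141245312-141245341 (PCDHB15), chr5:141208641-141208670 (PCDHB12), chr5:141172564-141172593 (PCDHB7), chr5:141100391-141100420 (PCDHB3) and chr5:141051335-141051364 (PCDHB1), all on the plus strand. The word was found in 13 of 14 beta promoters and in no promoter of another family of the clusters, against 0.619% of all 27305 genes, searched on both strands. Its first base lay 84 to 2 bases before the start. In PCDHB1 the nearest place within 100 bases of the start differed by 1 letter, C6T, counted from 1 at the first letter of the word. CAGCGCCACC, which more member promoters held than any other 10-base word, overlaps the beta word on the other strand and was found in 12 of 47 genes, all of them beta genes, and in 0.341% of all genes.

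The alternate alpha promoters shared TGTCGCT, shown in capitals for a gene listed at 0 in both libraries (PCDHA4), for the highest alternate genes (PCDHA10, PCDHA11 and PCDHA12) and, with its nearest counterpart, for PCDHA9. The gamma A promoters shared CGCTGTT, shown for PCDHGA1 and PCDHGA6 and, with its nearest counterpart, for PCDHGA11, the highest gamma A gene.
PCDHA4: tggagccacatgaTGTCGCTctttaccaca
PCDHA10: taaagccaccggaTGTCGCTgtcgtccaca
PCDHA11: tttaggcgcaaggTGTCGCTctttacttgg
PCDHA12: atcagtcacatgaTGTCGCTctacactcag
PCDHA9: ttgggccacgtgaTGTCACTctttgccgcg
PCDHGA1: ggactgtgggcgcCGCTGTTcactaatctg
PCDHGA6: ggactctaagcgtCGCTGTTgaccaacctg
PCDHGA11: gggctctaggcgcCGCTGCTcaccaatcag

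The windows lie on the plus strand at chr5:140806979-140807008 (PCDHA4), chr5:140855841-140855870 (PCDHA10), chr5:140868883-140868912 (PCDHA11), chr5:140875244-140875273 (PCDHA12), chr5:140848287-140848316 (PCDHA9), chr5:141330406-141330435 (PCDHGA1), chr5:141373838-141373867 (PCDHGA6) and chr5:141420975-141421004 (PCDHGA11). The alpha word was found in 10 of 11 alternate alpha promoters, 84 to 41 bases before the start, and in 2.15% of all genes. The exception, PCDHA9, had G5A at the nearest place. The alpha word was also found in PCDHB4, PCDHGA3, PCDHGA4 and PCDHGA5, so it was not particular to its family. The gamma A word was found in 10 of 11 gamma A promoters, 95 to 39 bases before the start, and in 2.73% of all genes. The exception was PCDHGA11, with T6C at the nearest place. The gamma A word was also found in PCDHB3, PCDHGB2, PCDHGB4 and PCDHGB5. These family words were chosen after the sequences were seen. Neither word was found in a C-type promoter, and the gamma B promoters shared GGGCGCC less closely, in 5 of 7 genes and 13.5% of all genes.

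The word went with no single level. Among the 13 beta genes that hold it, levels ran from 0.00549 to 0.282 FPKM in A549-NICD1 and from 0.0141 to 0.334 FPKM in A549-Vector. Among the 10 alternate alpha genes that hold theirs, they ran from 0 to 0.747 FPKM and from 0 to 0.803 FPKM. PCDHGA11, which lacked the exact gamma A word, was at 1.56 and 1.72 FPKM, and the 10 gamma A genes that hold it were at no more than 0.111 and 0.105 FPKM. Of the other letters searched, CGCT was found in 46 of 47 member genes and 71.9% of all genes, and it lies inside all 3 family words of the alpha, beta and gamma A promoters. The core of the motif of RBPJ, the DNA-binding partner of NICD1, TGGGAA, was found in 34.0% of member genes and 28.1% of all genes. A core of the CTCF motif, CNAGNNGGC, was found in 8.51% of member genes and 28.1% of all genes. Its matches in PCDHB7 and PCDHB9 overlap the beta word of these promoters. Places that differ from the searched letters were not counted, so the share does not tell how often CTCF can bind. A match describes the letters only.

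Few isoforms carried most of the signal, and the highest ones were the same in both libraries. Above 0 were 48 members in A549-NICD1 and 46 in A549-Vector, and PCDHA4, PCDHA5 and PCDHB1 were listed at 0 in both. At 0.1 FPKM or more were 7 alpha, 6 beta and 7 gamma genes in A549-NICD1 and 5 alpha, 8 beta and 8 gamma genes in A549-Vector. A level of 1 FPKM was reached by PCDHAC2, PCDHGA11 and PCDHGC3 in both libraries and by no other member in either. A level in bulk RNA cannot tell fewer cells with a promoter switched on from less RNA in each cell.

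In the alpha cluster the C-type isoform PCDHAC2 was highest, at 1.04 FPKM in A549-NICD1 and 1.42 FPKM in A549-Vector. PCDHA10 followed at 0.747 and 0.803 FPKM, and PCDHA11 at 0.366 and 0.373 FPKM. These were the leading alpha isoforms in the same order in both libraries. PCDHA12 was at 0.227 FPKM in A549-NICD1 and 0.129 FPKM in A549-Vector, the C-type isoform PCDHAC1 at 0.209 and 0.184 FPKM, and PCDHA13 at 0.129 and 0.0428 FPKM. PCDHA8 was at 0.102 and 0.0961 FPKM, on either side of 0.1 FPKM with 19 and 18 reads. The other 8 alpha genes were at 0.0733 FPKM or less in both libraries. Of these, PCDHA2, PCDHA3 and PCDHA6 had 5, 7 and 5 reads in A549-NICD1 but 0 with the vector. The lower end of the counting interval of their log2 ratio was -0.07, 0.59 and -0.07, so that it lay above 0 for PCDHA3 alone of these. PCDHA7 had 4 reads against 0, or 1 against 0 at the smallest reads its values allow.

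The higher alpha isoforms lay towards the end of the cluster. Across its 15 genes the Spearman correlation between order along the chromosome and level was 0.76 in A549-NICD1 and 0.78 in A549-Vector, as a description across genes of the same libraries. It was 0.48 and 0.52 across the 16 beta genes and 0.65 and 0.57 across the 22 gamma genes. The last genes of the alpha and gamma clusters are the C-type isoforms, all 5 of which reached 0.1 FPKM in each library.

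The beta genes were low and even. PCDHB2 was highest, at 0.282 FPKM in A549-NICD1 and 0.334 FPKM in A549-Vector, and PCDHB13 was at 0.20 and 0.305 FPKM. PCDHB15 was at 0.171 and 0.292 FPKM, and PCDHB14 at 0.161 and 0.156 FPKM. No beta gene stood apart from the next one as PCDHGC3 did in its cluster. PCDHB8 was at 0.144 and 0.213 FPKM and PCDHB16 at 0.109 and 0.163 FPKM. PCDHB11 was at 0.0945 and 0.195 FPKM, and PCDHB12 at 0.0302 and 0.145 FPKM, so these genes reached 0.1 FPKM in A549-Vector but not in A549-NICD1. The other 8 beta genes were at 0.0841 FPKM or less in both.

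In the gamma cluster the C-type isoform PCDHGC3 was at 4.39 FPKM in A549-NICD1 and 4.63 FPKM in A549-Vector, the highest level of any member. It ranked 9585 and 9638 among all genes by FPKM, so even the leading isoform was a low to middling transcript. PCDHGA11 was at 1.56 and 1.72 FPKM, and PCDHGC4 at 0.324 and 0.381 FPKM. PCDHGB5 was at 0.305 and 0.450 FPKM, PCDHGB7 at 0.289 and 0.196 FPKM and the C-type isoform PCDHGC5 at 0.102 and 0.113 FPKM. The remaining genes of this cluster that reached 0.1 FPKM did so in 1 library each. PCDHGA6 was at 0.111 FPKM in A549-NICD1 and 0.0932 FPKM in A549-Vector, PCDHGB3 at 0.0226 and 0.169 FPKM, and PCDHGA1 at 0.0233 and 0.105 FPKM. The other 13 gamma genes were at 0.0997 FPKM or less. Of these, PCDHGB4 had 0 reads in A549-NICD1 but 7 with the vector, with the upper end of the counting interval of its log2 ratio at -0.47. PCDHGA4 went the other way, with 8 reads in A549-NICD1 and 1 with the vector and the lower end of its interval at 0.16.

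Summed over a cluster, the levels of the libraries were close for alpha and gamma and lower in A549-NICD1 for beta. The alpha genes summed to 3.06 FPKM in A549-NICD1 and 3.10 FPKM in A549-Vector, the beta genes to 1.43 and 2.05 FPKM and the gamma genes to 7.75 and 8.45 FPKM. After scaling, the log2 ratio of the summed reads was 0.02 for alpha (Clopper-Pearson interval -0.12 to 0.16), -0.45 for beta (-0.70 to -0.20) and -0.07 for gamma (-0.18 to 0.04). The interval lies below 0 for the beta cluster and holds 0 for the alpha and gamma clusters. The 13 alternate alpha genes alone summed to 1.81 FPKM in A549-NICD1 and 1.49 FPKM in A549-Vector, a log2 ratio of reads of 0.20 (0.02 to 0.38), while PCDHAC2 was lower in A549-NICD1 with a log2 fold change of -0.39 (-0.65 to -0.13). With 1 library each, differences between the cultures cannot be told apart from the effect of NICD1.

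By FPKM, the isoform with the largest share of its cluster was the same in both libraries, while isoforms below the leading ones changed places. PCDHGC4 was above PCDHGB5 in A549-NICD1 and below it in A549-Vector, and so was PCDHA12 relative to PCDHAC1. These swaps rest on few reads. In A549-NICD1 and A549-Vector, PCDHGC4 had 57 and 67 reads and PCDHGB5 52 and 77. PCDHA12 had 44 and 25 reads and PCDHAC1 42 and 37. For each of these genes, the intervals of its share of reads overlapped between the libraries. PCDHGB3 and PCDHGA1 also ranked lower in A549-NICD1. PCDHGC3 made up 56.6% of the summed gamma FPKM in A549-NICD1 and 54.8% in A549-Vector, and PCDHGA11 20.1% and 20.4%. PCDHAC2 made up 34.1% of the alpha sum in A549-NICD1 and 45.9% in A549-Vector, PCDHA10 24.4% and 26.0% and PCDHA11 11.95% and 12.03%. By recovered reads PCDHA10 led the alpha cluster instead, with 38.1% in A549-NICD1 and 40.0% in A549-Vector. This order depends on the transcript length used. With the median coding length PCDHA10 had 154 and 166 reads and PCDHAC2 220 and 300. PCDHB2 made up 19.7% and 16.3% of the beta sum. The effective number of isoforms, the inverse of the summed squared shares, was 4.89 and 3.35 for alpha, 8.89 and 9.17 for beta and 2.73 and 2.86 for gamma. The beta cluster was thus spread over the most genes and the gamma cluster over the fewest in both libraries.

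**Figure D1:**
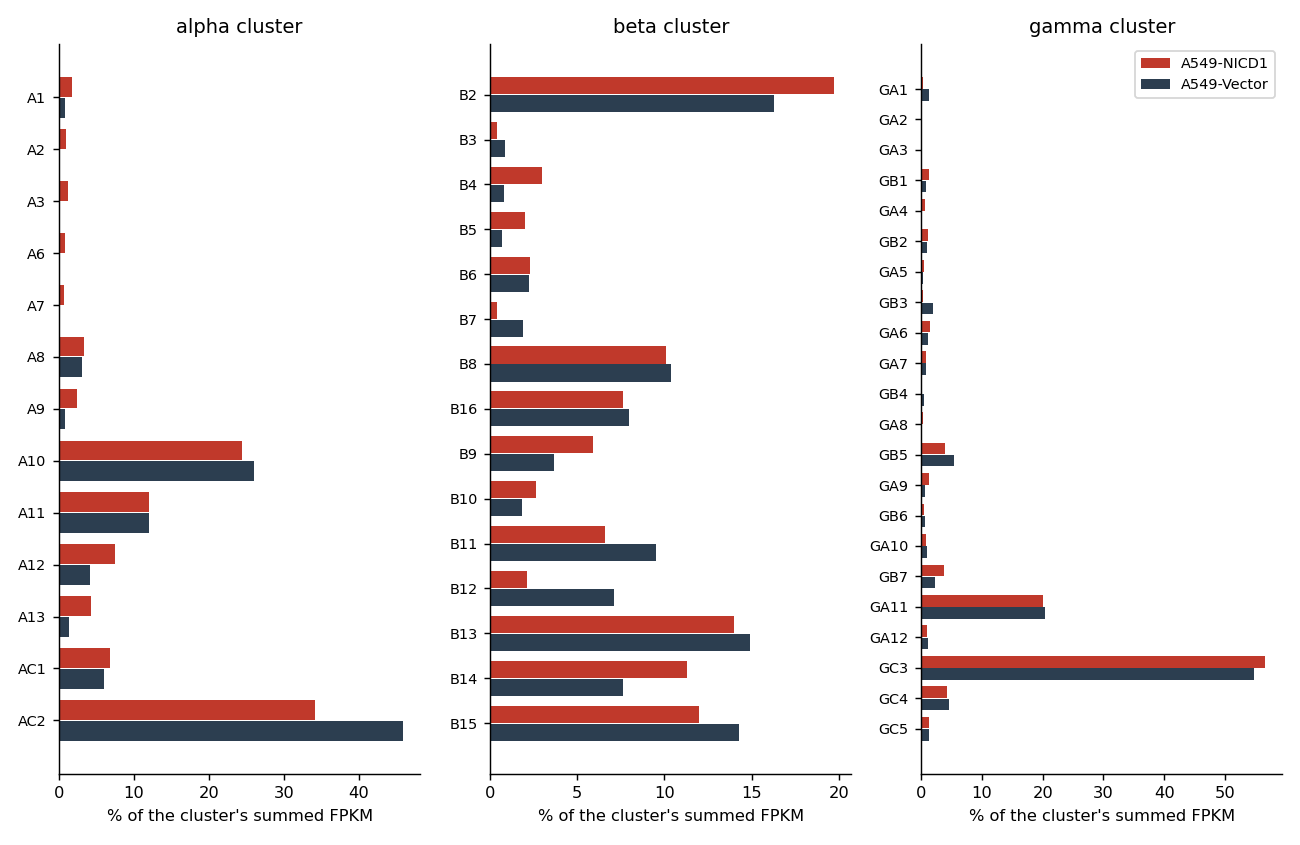
Share of the summed FPKM of its cluster (x axis, %) taken by each gene above 0 in A549-NICD1 (red bars) and A549-Vector (dark bars), with 1 panel per cluster and a separate scale for each. PCDHAC2 leads the alpha cluster with 34.1% and 45.9%, the beta shares are spread over many genes, and PCDHGC3 holds 56.6% and 54.8% of the gamma cluster.

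The share of a cluster's FPKM that would have to move between isoforms to turn one library into the other was 13.4% for alpha, 13.7% for beta and 5.69% for gamma. Among the 53 members, intervals of the share of reads did not overlap between the libraries for PCDHAC2, PCDHA13 and PCDHGB3. No such rate was computed for other genes, and the intervals cover counting error only. The number of these genes is therefore not a result about isoform choice. PCDHAC2 held 27.2% of the alpha reads in A549-NICD1 (24.2% to 30.4%) and 36.1% in A549-Vector (32.8% to 39.5%). PCDHA13 held 2.97% (1.91% to 4.39%) and 0.963% (0.417% to 1.89%), and PCDHGB3 held 0.301% of the gamma reads (0.0822% to 0.770%) and 2.07% (1.40% to 2.94%). The reads of a gene may be off by a whole-number factor, and at the smallest reads the values allow, PCDHA13 had 6 and 2 reads and its intervals overlapped. The Spearman correlation of levels between the libraries was 0.96 for alpha, 0.88 for beta and 0.74 for gamma genes. It was 0.79 over 2513 genes of any kind above 0 in both libraries with a larger read number of 10 to 99. The sets are unlike, since the cluster values cover all genes of a cluster, whatever their reads and also those at 0.

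Of the 53 members, 33 had at least 10 reads in a library. On the log2 scale of reads plus 0.5, which understates the change of low genes, 3 of the 33 were above 1, as were 4.31% of the 15277 genes that passed the same filter, and 3 were below -1, as were 2.2% of them. All 6 were among the 29 members with a larger read number of 10 to 99, a class of genes in which 20.5% were above 1 and 10.5% below -1. The members' count is thus no higher than that of other genes with as few reads, and none of the 4 members with 100 reads or more passed either limit. The median log2 fold change was -0.09 over the 33 members and -0.00025 over all 15277 genes. Over genes of any kind with a larger read number of 10 to 99 it was 0.13. It was 0.24 over 9 alpha, -0.51 over 9 beta and -0.09 over 15 gamma genes. Above 0 were 7 of the 9 alpha genes, and below 0 were 7 of the 9 beta genes. The share of other genes above or below 0 was not counted.

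The members above 1 were all alternate alpha isoforms. PCDHA9 had 22 reads with NICD1 and 7 with the vector, a log2 fold change of 1.64 (0.43 to 3.18). PCDHA13 had 24 and 8 reads, a log2 fold change of 1.59 (0.44 to 3.01), and PCDHA1 had 11 and 5 reads, a log2 fold change of 1.12 (-0.45 to 3.07). The interval of PCDHA1 holds 0. At the smallest reads its values allow, PCDHA13 had 6 and 2 reads, too few for the filter, and its interval is wider there. The members below -1 were PCDHGB3 with 4 reads with NICD1 and 30 with the vector (-2.70, interval -4.81 to -1.34), PCDHB12 with 5 and 24 reads (-2.10, -3.95 to -0.79) and PCDHGA1 with 4 and 18 reads (-1.98, -4.13 to -0.51). Each member above 1 or below -1 passed the read filter in its higher library only. How far this selection by the higher library adds to their differences was not tested. Between the limits of 1 and -1, PCDHA12 at 0.86 (0.13 to 1.64), PCDHB11 at -0.96 (-1.98 to -0.06) and PCDHAC2 at -0.39 (-0.65 to -0.13) had intervals off 0. Of the 33 members, 25 had an interval that held 0, PCDHA1 among them. The same share over all genes was not computed, so this count does not set the members apart from other genes.

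Of the 4 members with 100 reads or more, PCDHGC3, PCDHGA11 and PCDHA10 had intervals that held 0, and PCDHAC2, given above at -0.39, did not. PCDHGC3 had a log2 fold change of -0.02 (-0.17 to 0.13) on 699 and 739 reads, PCDHGA11 of -0.09 (-0.31 to 0.14) on 310 and 343 reads, and PCDHA10 of -0.05 (-0.28 to 0.18) on 308 and 332 reads. None of the 4 intervals includes a change of 1 log2 unit.

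Genes that act on these clusters were expressed and close between the libraries. All 26 regulators of promoter choice and silencing reached 1 FPKM in each library, and none was above 1 or below -1, with a median log2 fold change of -0.01. CTCF, which binds the promoters, was at 37.9 FPKM in A549-NICD1 and 39.4 FPKM in A549-Vector, the corepressor TRIM28 was highest at 251 and 236 FPKM, and TET2, which oxidises methylated cytosine, was lowest at 4.54 and 4.22 FPKM. Of 19 partners and proteases of the cytoplasmic domains none passed either limit (median 0.04). They include ADAM10 and the presenilins, which cleave protocadherins as well as Notch receptors. MARCKS and the WAVE complex subunits NCKAP1 and ABI1 belong to the same list, in which APH1A was highest at 80.0 and 81.0 FPKM and PTK2B lowest at 1.16 and 0.984 FPKM. Of 18 neighbouring genes on the same chromosome arm, 17 had 10 reads or more and none passed either limit (median -0.03). IK was highest at 81.1 and 77.5 FPKM and SLC25A2, which lies between clusters, was lowest at 0.0144 and 0.0717 FPKM.

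The non-clustered protocadherins, which are encoded at separate places, were mostly expressed at higher levels than the clustered ones. Of 12 genes, 11 had 10 reads or more, 0 were above 1 and 1 was below -1, with a median log2 fold change of -0.29. The highest were PCDH7 at 18.8 FPKM in A549-NICD1 and 27.8 FPKM in A549-Vector and PCDH9 at 14.2 and 17.9 FPKM, and the lowest was PCDH15 at 0.0202 and 0.0173 FPKM. The gene below -1 was PCDH11X, with 15 and 39 reads (-1.29, -2.29 to -0.43). The median level of the 12 genes was 2.65 and 3.20 FPKM, against 0.0723 and 0.0746 FPKM over the 53 clustered genes.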

How the data were processed

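The authors deposited 1 value per gene and library, from polyA RNA prepared with a NEBNext Ultra kit and sequenced on an Illumina NovaSeq. The unit of the deposited values was read from the values as FPKM. The submitters' processing notes name Bowtie2, HTSeq and hg38, and versions and annotation are not given in the sources used here. The libraries were grouped by genotype label.

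All 53 members and all lists were chosen with earlier results of these data known. The genes named were those at 0.1 FPKM or more in a library, those past a log2 fold change of 1 with at least 10 reads, and the highest, lowest and changed genes of each list. Rows named by a date number (27) were dropped.

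Whole reads were recovered with GENCODE 29 transcript lengths, matched for 18787 of 19198 gene names. All 17178 genes above 0 gave whole reads at depths set by 200 transcript lengths, and with the depths raised by 1 percent 9.62% of 1289 checked genes did. Lengths, and so reads, may be off by a whole-number factor that leaves ratios between the libraries as they are. The width of the counting intervals does depend on that factor. The length nearest to the mean coding transcript was used. A total of 3 reference lengths (mean coding, median coding and RefSeq-paired) were computed after the members' values, and some values in the paper's supplement, had been seen. The first one written was kept, and the others and the smallest reads are alternatives. Recovered reads summed to 97.2% and 97.0% of the depths. The PCDHA10 reads, and so the shares of alpha reads, depend on this choice, and FPKM shares do not.

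Fold changes used reads with 0.5 added, divided by depth after trimmed-mean scaling (factor 0.962 for A549-NICD1), trimming 30% of ratios and 5% of levels at each end. Intervals are 95% Clopper-Pearson intervals. No test was made, since each group had 1 library, and intervals cover counting error only, as reads carried no molecular identifiers. The steps were tested on simulated reads. Promoters came from RefSeq (GRCh38.p14). Older gene names were matched through RefSeq synonyms. Alternatives covered scaling, pseudocount, filter, threshold and read choice. Python 3.11.15, numpy 2.4.6, pandas 2.3.3, scipy 1.17.1 and matplotlib 3.10.9 were used.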

Additional observations from a re-analysis of the deposited data

How the results depend on the processing

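No paired analysis was possible because there was 1 library in each group, and for the same reason no replicate could be left out. Members above and below the log2 limits of 1 and -1 numbered 3 and 3, and 658 and 336 over all genes. With a pseudocount of 0.1 FPKM they were 0 and 1 (all genes 325 and 118), with no filter 10 and 7 (1518 and 791), with 30 reads 0 and 1 (311 and 169), and at log2 2 they were 0 and 2 (240 and 87). PCDHGB3 was below the limit in each of these. At the smallest reads PCDHA13 no longer passed the filter. At 0.05 FPKM 13 and 15 gamma genes were expressed in A549-NICD1 and A549-Vector; at 0.5 FPKM 2 and 2 alpha, 0 and 0 beta and 2 and 2 gamma genes were, and at 1 FPKM 1 and 1, 0 and 0, and 2 and 2. Without PCDHAC2 the log2 ratio of the alpha sum was 0.32 instead of 0.04. By reads instead of FPKM, also with the RefSeq-paired length, the effective number of alpha isoforms in A549-NICD1 was 4.13 and the share difference 10.7%, and at the smallest reads the effective numbers were 5.47 and 4.16. Without C-type isoforms the share difference was 18.2% for alpha and 12.2% for gamma. The cause was not tested. In all, 94 of the recomputed values stayed within set limits of the reported one and 38 moved, and none changed sign. These include the counts over all genes. For the cluster medians the limits were wide. Without the filter the alpha median log2 fold change was 0.86 instead of 0.24. With a pseudocount of 0.1 FPKM the beta median was -0.30 instead of -0.51, and both counted as within the limits. Members with few reads limit what can be seen, as 20 of 53 had fewer than 10 reads.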

Other observations

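Among non-clustered protocadherins, several genes with many reads differed between the libraries beyond counting error without reaching a log2 fold change of 1. PCDH19 was at 6.86 FPKM in A549-NICD1 and 12.3 FPKM in A549-Vector (log2 fold change -0.79, interval -0.85 to -0.72), PCDH17 at 2.63 and 4.04 FPKM (-0.56, -0.68 to -0.45) and PCDH18 at 2.58 and 3.88 FPKM (-0.53, -0.67 to -0.40). PCDH1 went the other way, at 3.18 and 1.92 FPKM (0.78, 0.59 to 0.98), and PCDH10 and PCDH20 had intervals that held 0. These genes were chosen after their values were seen. Among the marker lists, KRT8 was at 176 FPKM in A549-NICD1 and 85.9 FPKM in A549-Vector (1.09, 1.05 to 1.14), the only listed A549 marker past a limit of 1. None of these differences has a replicate check.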
